A study of Rattus norvegicus with 6 samples.

Results

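The 7 genes described here, Cftr, Spp1, Epcam, Krt19, Krt7, Sox9 and Prom1, mark the epithelium of bile ducts and the duct-like progenitor cells of the liver. They were chosen from the probes of the array by RefSeq accession, with results of the same comparison of phenolphthalein with corn oil already known. Their differences between the groups are therefore given as a description, with no p-value. Of the 15284 genes with a named probe, these markers account for 6, carried by 11 probes. Sox9, a transcription factor of duct cells, had no probe matched by accession and was not analysed here. Of the 11 probes, 9 passed a filter on dim signal, which asked for a spot well above background on 3 or more arrays, and 8 of these met it on all 6. The other 2 probes were both for Cftr.

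Liver RNA came from 6 male Sprague-Dawley rats, bought at 5 weeks of age, with 1 single-colour array per animal. Controls were 3 rats given corn oil, the vehicle, and the treated group was 3 rats dosed daily with phenolphthalein at 1000 mg per kg. Phenolphthalein is an acid-base indicator with a past use as a laxative. Duration is uncertain, the design text giving 28 days and the treatment protocol 9 weeks. Control arrays shared slide 1 and scan 1, treated arrays slide 2 and scan 2, and an effect of phenolphthalein cannot be told apart from one of slide or scan.

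Bile ducts are lined by cholangiocytes, epithelial cells that carry bile out of the liver and add water and bicarbonate to it. After injury, cells with duct markers can appear at the edge of the portal tract, a response known as the ductular reaction, and some of them share markers with progenitor cells. The markers differ in kind. Cftr is an anion channel, Epcam and Prom1 are surface proteins, Spp1 is a secreted protein, and Krt19 and Krt7 are keratins of the cytoskeleton. In RNA of whole liver, fewer cells of a type and less RNA per cell cannot be told apart.

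Levels are log2 of the background-subtracted signal over the 75th percentile of the same array, so a negative level is a signal below that percentile. The 75th percentile was 550.9 to 635.8 signal units, 62.1% to 65.1% of the 61657 probes were well above background, and no spot was saturated. The hepatocyte list, which checks the labelled tissue, had 12 of 12 genes well above background on all 6 arrays. Over all 39411 probes past the filter, the median difference, phenolphthalein minus corn oil, was 0.02, and the 5th and 95th percentiles were -0.55 and 0.42. Limma called 18 probes higher and 1 lower at an adjusted p under 0.05, and 5206 had an unadjusted p under 0.05.

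An array stood apart in 2 of the 5 measured markers of the mesothelium, the cell layer that covers the liver. On corn oil replicate 2 the level of Msln was -4.29, against -0.60 and -0.31 on the other controls and -0.68, -1.62 and -0.66 in the treated group. Upk1b was not well above background on that array, at -7.71, and lay between -2.73 and -1.65 on the other 5. Neither spot carried an outlier mark. Gpm6a and Calb2 lay within the range of the other arrays there. Gpm6a was at -1.05, between the other controls at -3.22 and -0.99, and Calb2 was at -2.85, between -3.04 and -2.465. Podxl was also at its lowest there, by less than Msln and Upk1b, at -0.005 with the other 5 arrays at 0.15 to 0.27. Wt1 was not well above background on any array. The summed level of the 5 measured mesothelial genes ran from 1.675 to 2.89 on corn oil arrays and from 2.58 to 3.28 on phenolphthalein arrays, as multiples of the 75th percentile. Values that moved by more than 1.5 times without corn oil replicate 2 are given with and without it, and the part of mesothelium in them was not tested.

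None of the 9 member probes was called at an adjusted p under 0.05 in limma, where 0.0482% of all probes were called. Mean signal was higher after phenolphthalein for 8 of the 9 probes, 4 of them of Prom1, and lower for 1, Krt19. Of all 39411 probes, 21042 had a higher mean. For 4 probes, of Cftr, Epcam, Spp1 and Prom1, every phenolphthalein array lay above every corn oil array, which held for 11.8% of all probes. No probe had the opposite arrangement. The median difference over the 9 probes was 0.37 on the log2 scale, with a range of -0.09 to 0.92, and the standard errors ran from 0.09 to 0.31.

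**Figure D1:**
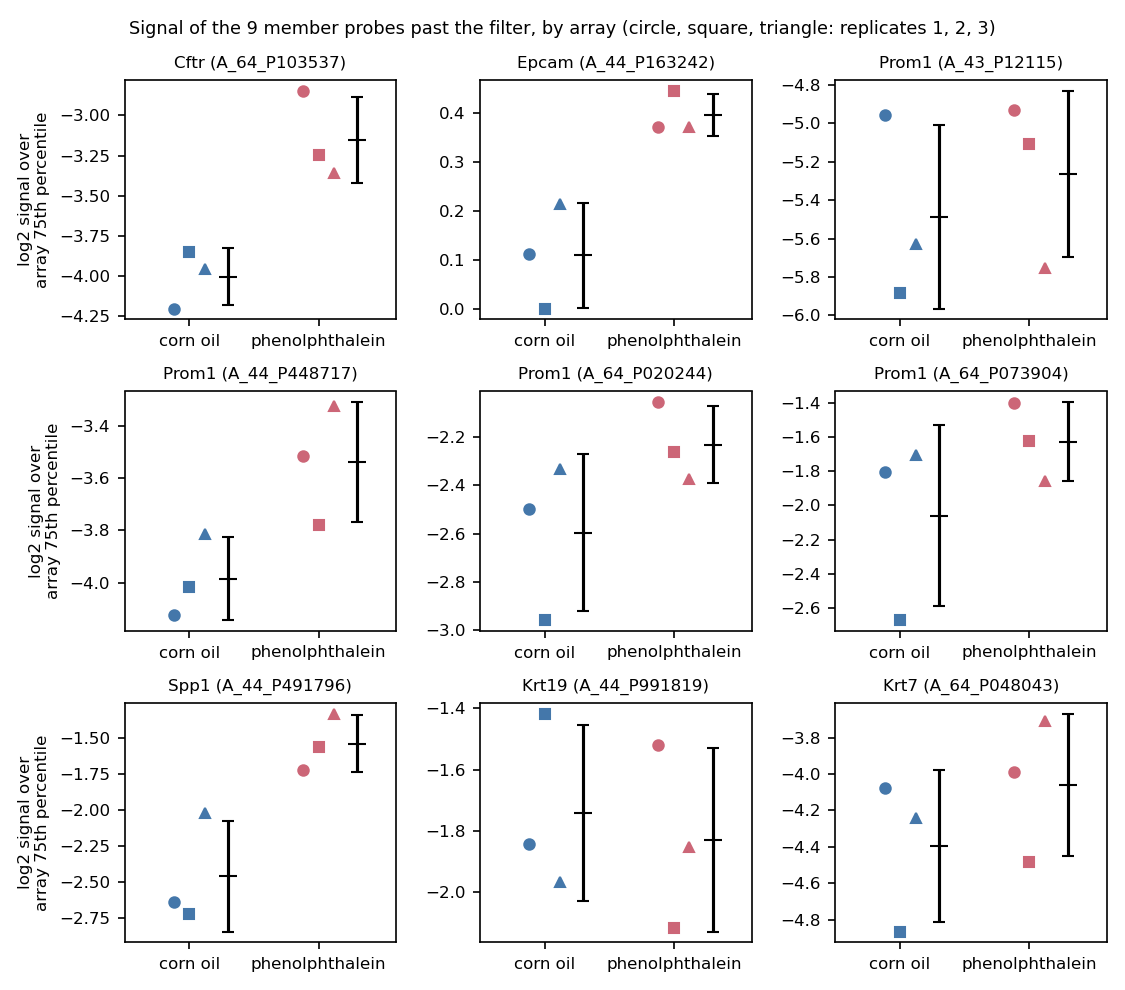
Level of each of the 9 member probes past the filter (log2 signal over the array's 75th percentile, vertical axis with its own range in each panel) on 3 corn oil and 3 phenolphthalein arrays. Symbols give the replicate and the bars the mean and SD of 3 arrays. Cftr, Epcam, Spp1 and Prom1 A_44_P448717 show no overlap between the groups, and corn oil replicate 2, the square, is the lowest corn oil array in 6 of the 9 panels.

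Promoters are shown for the 3 genes whose arrays did not overlap and that have a single start in the RefSeq table, as the 250 bases before the start on build GRCr8, written in the direction of the gene. Capitals mark every match to 6 short motifs searched on both strands. They were the GC box GGGCGG and the motifs of AP-1 (TGANTCA), HNF1 (GTTAAT), SOX (ACAANG), RBPJ (TGGGAA) and TEAD (GGAATG). The HNF1 motif searched is only a part of the full HNF1 site. The windows are chr4:47527379-47527628 on the plus strand for Cftr, chr6:12649679-12649928 on the minus strand for Epcam and chr14:5619805-5620054 on the minus strand for Spp1.
Cftr: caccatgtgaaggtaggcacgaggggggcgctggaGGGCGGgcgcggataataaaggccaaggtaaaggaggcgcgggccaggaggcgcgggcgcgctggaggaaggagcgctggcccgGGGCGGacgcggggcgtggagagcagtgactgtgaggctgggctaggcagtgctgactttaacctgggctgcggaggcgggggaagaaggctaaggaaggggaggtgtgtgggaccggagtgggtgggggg
Epcam: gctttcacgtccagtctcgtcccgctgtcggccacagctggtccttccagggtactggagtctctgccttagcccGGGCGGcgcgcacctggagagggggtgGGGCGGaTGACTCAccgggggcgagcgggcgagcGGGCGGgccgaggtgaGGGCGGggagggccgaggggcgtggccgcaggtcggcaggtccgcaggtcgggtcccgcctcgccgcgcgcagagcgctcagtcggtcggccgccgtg
Spp1: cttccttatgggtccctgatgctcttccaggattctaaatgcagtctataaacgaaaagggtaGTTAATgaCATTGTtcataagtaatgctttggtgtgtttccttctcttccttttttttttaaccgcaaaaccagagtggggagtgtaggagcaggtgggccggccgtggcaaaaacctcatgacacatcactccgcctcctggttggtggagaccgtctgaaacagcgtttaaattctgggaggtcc
The Cftr window held 2 GC boxes, 215 and 131 bases before the start. The Epcam window held 4 GC boxes, at 175, 148, 114 and 98 bases, and 1 AP-1 motif at 141 bases. The Spp1 window held no GC box but 1 HNF1 motif, at 187 bases, and 1 SOX motif on the opposite strand, at 179 bases. None of the matches overlapped another. Of 33465 such windows, 30.5% held a GC box, 6.34% the AP-1 motif, 6.45% the HNF1 motif, 36.9% the SOX motif, 22.1% the RBPJ motif and 12.1% the TEAD motif. GC content was 69.2% for Cftr, 75.6% for Epcam and 46.8% for Spp1, against a median of 51.2% over all windows. Cftr and Epcam thus have GC-rich promoters and Spp1 does not. All 3 are shown because their phenolphthalein arrays lay above their corn oil arrays. A link of promoter sequence with the differences was not tested. The RefSeq table had windows for 4 of the 7 genes, with 2 starts for Prom1, and Krt19, Krt7 and Sox9 were not matched.

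Cftr is the chloride and bicarbonate channel of the duct cell's luminal membrane, and it starts the flow of fluid into bile. Its probe past the filter, A_64_P103537, gave -4.20, -3.85 and -3.96 for corn oil animals 1, 2 and 3 and -2.85, -3.25 and -3.36 for phenolphthalein animals 1, 2 and 3. Array values of the other probes follow the same order. The lowest phenolphthalein array lay 0.49 above the highest corn oil array. The means were -4.00 ± 0.18 and -3.15 ± 0.27 (SD, n = 3 each), a difference of 0.85 ± 0.17 (limma's standard error) or 1.805-fold. In signal units the spots read 33.9 to 44.1 on corn oil and 53.8 to 80.4 on phenolphthalein arrays, well above background on all 6 but dim. With normexp background correction, which models the background in place of subtracting it, the difference was 0.45.

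The other Cftr probes gave no usable fold. A_44_P172901 had a spot well above background on 0 of 6 arrays, with measured means of -6.75 ± 0.60 on corn oil and -6.13 ± 0.41 on phenolphthalein arrays (SD, n = 3 each). A_64_P103542 was well above background on 1 array, phenolphthalein replicate 3, at -4.44, while phenolphthalein replicates 1 and 2 gave -7.47 and -5.34 and corn oil arrays -7.30, -7.40 and -7.04. Its spread within the treated group, an SD of 1.56, was close to its difference in means of 1.498. The Cftr result therefore rests on a single probe.

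Epcam is an adhesion protein of the epithelial cell surface, present on duct cells and progenitors and scarce on mature hepatocytes. Its probe, A_44_P163242, gave 0.11, 0.001 and 0.21 in controls and 0.37, 0.44 and 0.37 in treated animals. The groups did not overlap and were 0.155 apart at their nearest arrays. The difference of 0.29 ± 0.09 (limma's standard error, n = 3 each), or 1.22-fold, was the smallest among the probes without overlap, and it had the smallest standard error of the 9. Leaving out any 1 array gave 0.23 to 0.34, the lowest value without corn oil replicate 2.

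Prom1, also called CD133, is a membrane protein of cell protrusions that is used to sort liver progenitor cells. Its 4 probes, all matched to the same accession, had higher means after phenolphthalein, by 0.22 to 0.445. Only A_44_P448717 separated the groups, at -4.12, -4.015 and -3.81 on corn oil and -3.52, -3.78 and -3.32 on phenolphthalein arrays. The nearest arrays were 0.03 apart, and the difference was 0.445 ± 0.15 (limma's standard error), or 1.36-fold. With normexp it was 0.23.

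The Prom1 probes A_64_P020244 and A_64_P073904 overlapped between the groups. The first gave -2.50, -2.96 and -2.33 on corn oil and -2.055, -2.26 and -2.37 on phenolphthalein arrays. The other gave -1.81, -2.67 and -1.71 on corn oil and -1.40, -1.62 and -1.86 on phenolphthalein arrays. In both, corn oil replicate 2 was the lowest of all 6 arrays. The differences, 0.37 ± 0.185 and 0.43 ± 0.28 (limma's standard errors), were 0.185 and 0.13 without that array, and 0.23 for A_64_P020244 with normexp. The pair of probes moved together over the 6 arrays, with a Pearson r of 0.98 as a description. They sat at array rows 23 and 221 and at array columns 95 and 84.

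The remaining Prom1 probe, A_43_P12115, was well above background on 1 corn oil and 2 phenolphthalein arrays. It gave -4.96, -5.88 and -5.63 on corn oil and -4.93, -5.11 and -5.75 on phenolphthalein arrays. The difference of 0.22 ± 0.31 (limma's standard error) was smaller than its error. It ranged from 0.03 when corn oil replicate 2 was left out to 0.49 when corn oil replicate 1 was, with 0.06 on leaving out phenolphthalein replicate 1 and 0.47 on leaving out phenolphthalein replicate 3. Its spot error, as given by the scanner software, was 19.3% to 39.0% of the signal, against 10.0% to 18.0% for the other 8 probes. Across arrays it correlated with A_64_P020244 at 0.625 and with A_64_P073904 at 0.715, but with A_44_P448717 at -0.11. A_44_P448717, which separated the groups, correlated with A_64_P020244 at 0.585 and with A_64_P073904 at 0.44.

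**Figure D2:**
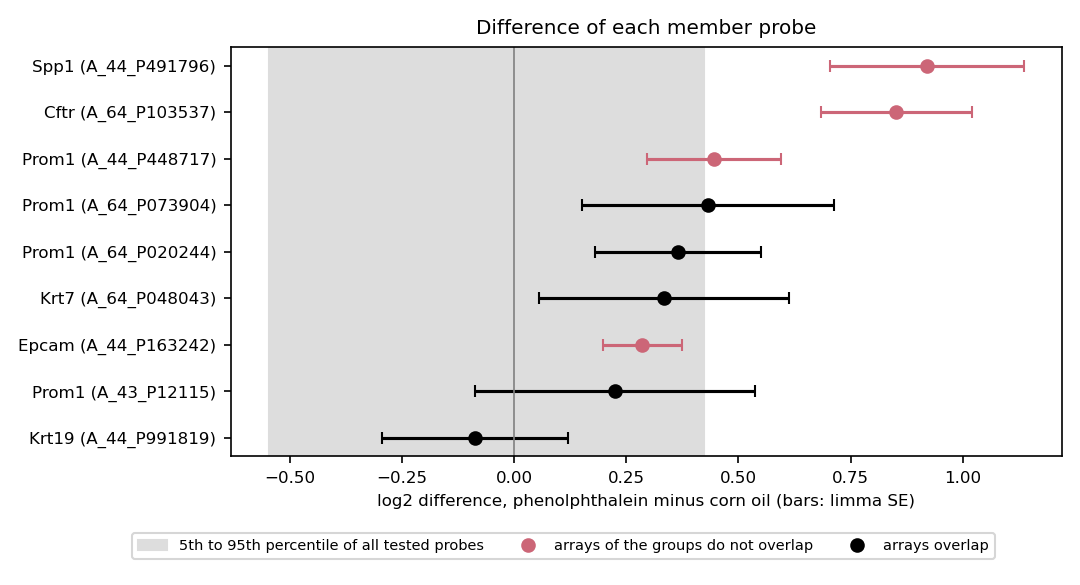
Difference in mean level of each member probe (log2, phenolphthalein minus corn oil, horizontal axis), with bars for limma's standard error, n = 3 arrays per group. Grey spans the 5th to 95th percentile of all 39411 probes, -0.55 to 0.42. Red points are probes whose arrays do not overlap between the groups. Spp1 and Cftr lie farthest to the right, at 0.92 and 0.85, and Krt19 is the only point left of 0.

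Spp1 encodes osteopontin, a secreted phosphoprotein that binds integrins and CD44 and is made by duct cells. It had the largest difference among the 9 probes. Its level was -2.64, -2.72 and -2.02 in controls and -1.72, -1.56 and -1.33 in treated animals. The groups were 0.30 apart at their nearest arrays, corn oil replicate 3 being the highest of the controls. The means of -2.46 ± 0.385 and -1.54 ± 0.20 (SD, n = 3 each) differed by 0.92 ± 0.22 (limma's standard error), or 1.89-fold. Leaving out any 1 array gave 0.79 to 1.14.

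Macrophages also make osteopontin, so their markers were set beside it. All 13 measured macrophage genes had lower means after phenolphthalein, with a median difference of -0.61. Limma called 0 of them, 10 had an unadjusted p under 0.05, and 7 had every phenolphthalein array below every corn oil array, against 11% of all 11434 genes tested. Marco, a scavenger receptor, differed by -1.45 ± 0.28 and Cd163, the haemoglobin receptor, by -0.63 ± 0.15 (limma's standard errors). The summed level of the list was 223.7 to 306.6 on corn oil and 165.2 to 212 on phenolphthalein arrays. The mean of Spp1 was higher after phenolphthalein and those of the macrophage markers were lower. Which cells the Spp1 RNA came from was not tested.

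The keratins gave no separation between the groups. Krt19, the type I keratin used most often to stain bile ducts, gave -1.84, -1.42 and -1.97 on corn oil and -1.52, -2.115 and -1.85 on phenolphthalein arrays. The arrays of the groups were interleaved, with means of -1.74 ± 0.29 and -1.83 ± 0.30 (SD, n = 3 each). The difference of -0.09 ± 0.21 (limma's standard error) turned positive without corn oil replicate 2, at 0.075, and without phenolphthalein replicate 2, at 0.06. Corn oil replicate 2, where Msln, Upk1b, Krt7 and 3 of the 4 Prom1 probes were at their lowest, had the highest Krt19 level of all 6 arrays.

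Krt7, a type II keratin of ducts and of ductular cells, gave -4.075, -4.87 and -4.24 on corn oil and -3.99, -4.48 and -3.71 on phenolphthalein arrays. Its difference of 0.33 ± 0.28 (limma's standard error, n = 3 each), or 1.26-fold, was about the size of its error. It was 0.10 without corn oil replicate 2, 0.16 without phenolphthalein replicate 3, 0.545 without phenolphthalein replicate 2 and 0.175 with normexp. Both keratins are also made by mesothelium. The correlation between Krt19 and Krt7 over the 6 arrays was -0.24, so they did not follow each other.

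**Figure D3:**
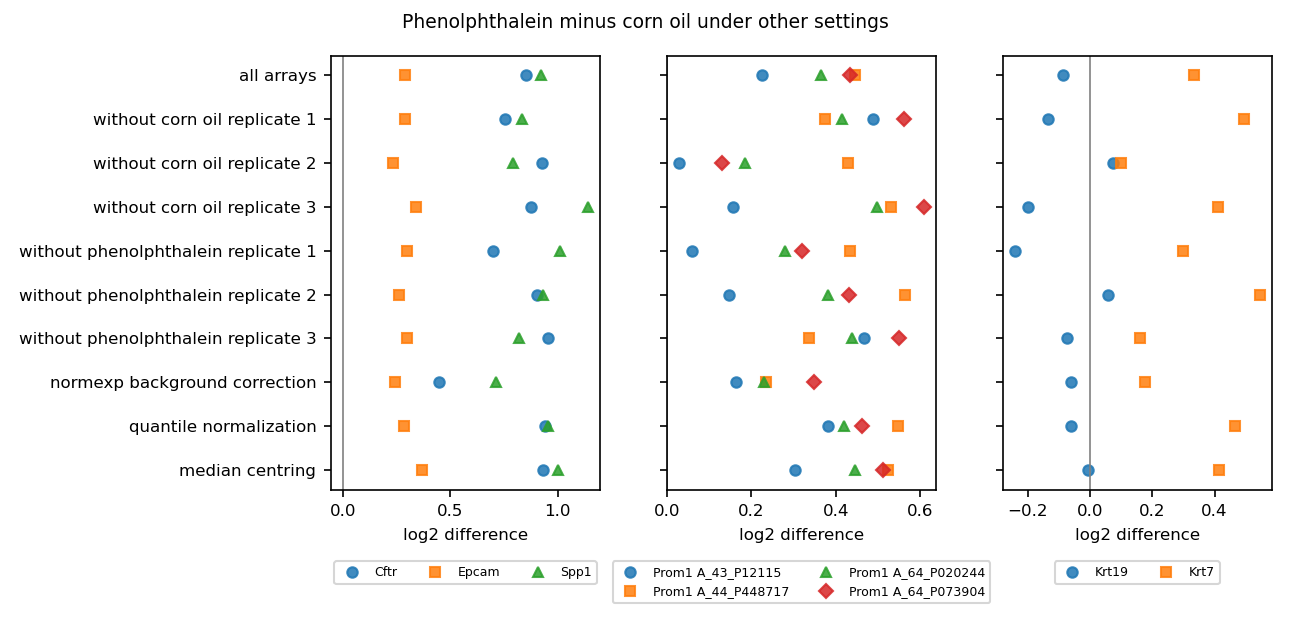
Difference in mean level (log2, phenolphthalein minus corn oil, horizontal axis) of Cftr, Epcam and Spp1 (left), the 4 Prom1 probes (middle) and the keratins (right) with all arrays, without each array and under other normalizations. Cftr, Epcam and Spp1 stay above 0 in every line, from 0.23 for Epcam to 1.14 for Spp1. Krt19 lies on both sides of 0, and Krt7 and 3 Prom1 probes are at their lowest without corn oil replicate 2.

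Among the markers, the highest correlation over the 6 arrays between probes of different genes was that of Epcam with Spp1, with a Pearson r of 0.94. Around the group means it was 0.73, below the 0.785 of Epcam with Prom1 A_64_P073904. Cftr correlated with Epcam at 0.79 and with Spp1 at 0.75 over the arrays, but at -0.26 and -0.29 around the group means. The Cftr values thus shared with Epcam and Spp1 the difference between the groups and not the order of animals within them. Krt19 ran against Epcam, with an r of -0.51, and -0.84 around the group means. These are descriptions over 6 arrays that share slide and treatment.

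**Figure D4:**
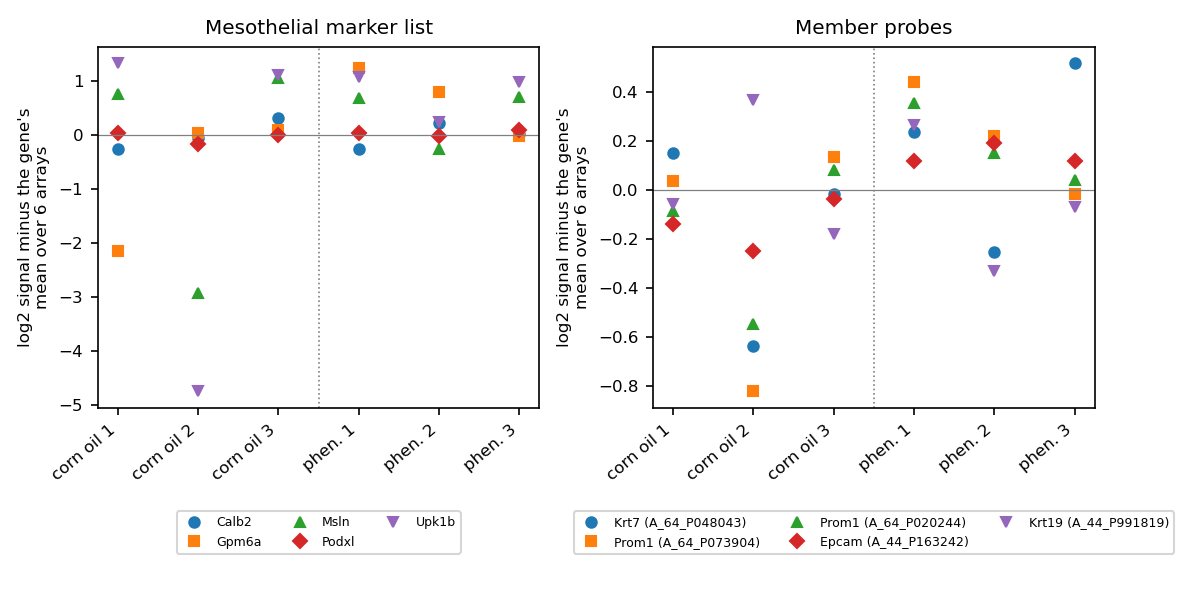
Level on each array minus the gene's mean over the 6 arrays (log2 units, vertical axis, ranges differ) for 5 mesothelial genes (left) and for member probes of Krt7, Prom1, Epcam and Krt19 (right). Each point is 1 array, and the dotted line parts the groups. On corn oil replicate 2, Msln and Upk1b lie far below the other arrays, Krt7, both Prom1 probes and Epcam are at their lowest, and Krt19 is at its highest.

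The genes whose levels were most like those of each marker over the 6 arrays were taken from 11425 genes by Pearson r, as a description. For Cftr they were Mrps16 (r 0.991), Nap1l1 (0.991) and Mettl9 (0.986). For Epcam they were Cmbl (0.992), Mageb3 (0.985) and Cyb5a (0.985), and for Spp1 Cox6a1 (0.996), Scp2 (0.994) and Bltp3b (0.994). The Prom1 probe A_64_P073904 was most like Serhl2 (0.985), Or4g17 (0.984) and Ttc14 (0.974). Krt19 was most like Or52p2 (0.983), Wdr31 (0.976) and Ppp2r1a (0.973), and Krt7 most like Sv2c (0.991), Slc35a2 (0.985) and Pdpn (0.981). No other marker was among the 3 of any marker. With 6 arrays, the 3 genes named for each marker were not alone in having a high r. Of the 11425 genes, 55 had an r above 0.95 with Cftr, 55 with Epcam and 68 with Spp1. The counts were 22 for Prom1, 13 for Krt19 and 16 for Krt7.

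The wider gene programme of ducts and progenitors was described with 7 lists, using 1 probe per gene. Limma called 6 genes higher and 1 lower of all 11434 tested, or 0.0612%, and none of the 121 genes in the lists. In the lists 13 genes had an unadjusted p under 0.05, 10.74% of them, against 15.27% of all genes. Every list median lay between -0.13 and 0.11, where the median of all genes was 0.01. Of all genes, 5926 had higher and 5508 lower means.

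Other genes of bile duct epithelium, 29 of them measured, had 14 higher and 15 lower means and a median difference of -0.01, or -0.035 without corn oil replicate 2 and 0.08 without corn oil replicate 1. In this list 1 gene had all phenolphthalein arrays above all corn oil arrays, against 12.2% of all genes, and none the reverse. That gene was Prss8, a membrane serine protease of epithelia, at -1.40, -1.21 and -1.23 on corn oil and 0.02, -0.565 and -0.955 on phenolphthalein arrays, a difference of 0.78 ± 0.25 (limma's standard error). St14, the protease matriptase that acts with it, differed by -0.20 ± 0.15.

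Genes of ductal secretion, the transporters, aquaporins and receptors that act with Cftr, had 11 higher and 5 lower means of 16 measured, with a median of 0.085. The gene with the smallest p was Car2, the carbonic anhydrase that supplies bicarbonate, at 0.47, 0.49 and 0.52 on corn oil and -0.02, 0.11 and 0.25 on phenolphthalein arrays. Its difference of -0.38 ± 0.09 (limma's standard error, adjusted p = 0.200) was opposite in sign to that of Cftr. Kcnn4, a calcium-activated potassium channel, differed by -0.57 ± 0.17. Without corn oil replicate 2 the median of the list was -0.001.

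Progenitor and oval cell genes had 12 higher and 5 lower means of 17 measured, with a median of 0.11. Lgr4, a receptor that strengthens Wnt signalling, gave 1.86, 2.16 and 2.01 on corn oil and 2.30, 2.34 and 2.51 on phenolphthalein arrays, without overlap and with a difference of 0.37 ± 0.11 (limma's standard error). Cd34, a surface protein of blood progenitors and endothelium, gave -4.73, -4.53 and -4.525 on corn oil and -5.93, -6.175 and -4.735 on phenolphthalein arrays, and was well above background on 3 of the former and 1 of the latter, so no fold is given. The median of the list came to 0.05 on leaving out corn oil replicate 2 and to 0.03 on leaving out phenolphthalein replicate 1. Afp, the fetal albumin-like protein of oval cells, was named after its values were seen. It differed by 0.48 ± 0.23, and its arrays overlapped between the groups. Dlk1, another gene of the list named after its values were seen, had a lower mean, -5.44 against -4.585 on corn oil arrays. It was well above background on 2 corn oil arrays and 1 phenolphthalein array, so no fold is given.

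Notch signalling, which directs liver progenitors towards the duct fate, had 7 higher and 9 lower means of 16 measured, with a median of -0.07. Heyl, a Notch target, gave -3.86, -3.86 and -4.11 on corn oil and -4.50, -5.01 and -4.80 on phenolphthalein arrays, a difference of -0.83 ± 0.15 (limma's standard error, adjusted p = 0.158). The Heyl arrays of the groups did not overlap. The list median came to -0.02 on leaving out corn oil replicate 2 and turned to 0.06 on leaving out corn oil replicate 1.

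YAP and TEAD genes, which serve a growth pathway active in duct cells, had 5 higher and 14 lower means of 19, with a median of -0.09, or -0.02 without phenolphthalein replicate 1 and -0.04 without corn oil replicate 1. Axl, a receptor tyrosine kinase, came nearest to the threshold of all listed genes, at -2.63, -2.675 and -2.78 on corn oil and -3.32, -3.32 and -3.27 on phenolphthalein arrays. Its difference was -0.61 ± 0.075 (limma's standard error, adjusted p = 0.0955). Stk4, a kinase that restrains YAP, differed by 0.38 ± 0.13.

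Partners and receptors of osteopontin and Epcam had 4 higher and 7 lower means of 11, with a median of -0.13, which was -0.02 without corn oil replicate 2 and also with the mean of each gene's probes. Tgm2, a transglutaminase that crosslinks osteopontin, differed by -0.295 ± 0.10 and Itga4, an integrin chain that binds it, by -0.34 ± 0.14 (limma's standard errors). Other keratins and junction genes of simple epithelia had 5 higher and 12 lower means of 17, with a median of -0.08. Vim, the filament protein of mesenchymal cells, differed by -0.42 ± 0.12 and Cldn2, a tight junction protein, by -0.32 ± 0.11.

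**Figure D5:**
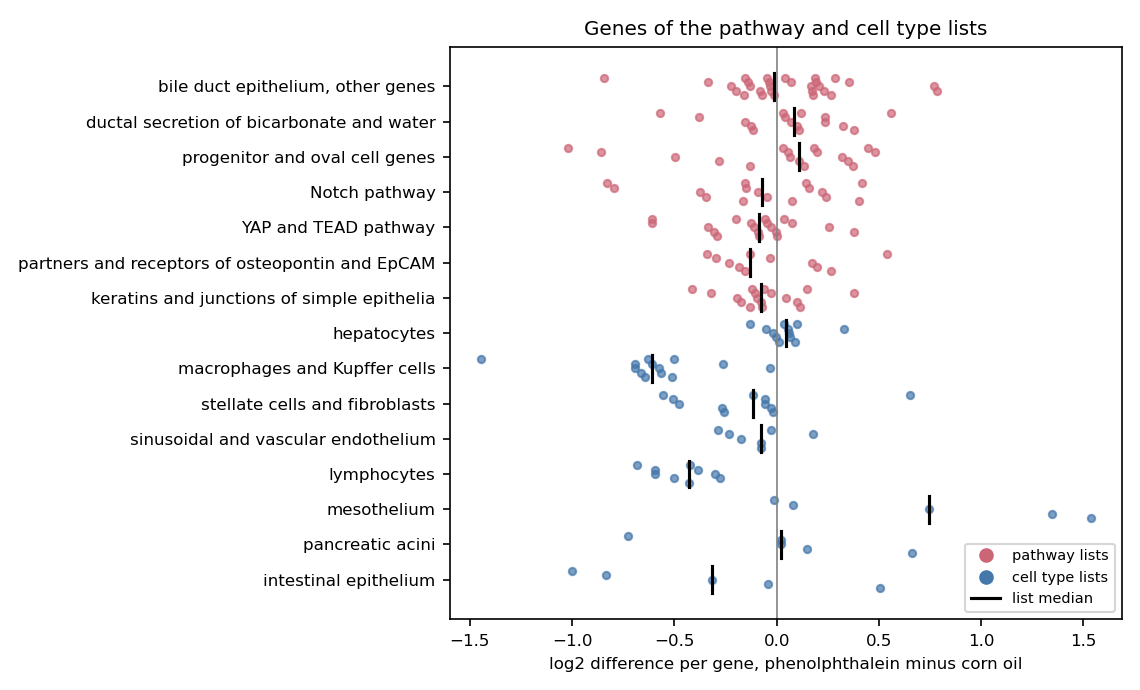
Difference of each measured gene (log2, phenolphthalein minus corn oil, horizontal axis) in the 7 pathway lists (red) and 8 cell type lists (blue), with the list median as a bar. Medians of the pathway lists lie between -0.13 and 0.11. The macrophage list has all 13 genes left of 0 and a median of -0.61, and the lymphocyte list all 9 and a median of -0.43.

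Markers of the other cells of the liver were measured beside these lists. Hepatocyte genes had a median difference of 0.04 and a summed level of 5285 to 5682 on corn oil and 5518 to 5700 on phenolphthalein arrays, with Fgb differing by 0.10 ± 0.07 and Tat by 0.33 ± 0.25. Lymphocyte genes had lower means in 9 of 9, with a median of -0.43, Ptprc at -0.59 ± 0.11, Lck at -0.50 ± 0.13, and summed levels of 4.21 to 4.84 on corn oil and 2.88 to 3.44 on phenolphthalein arrays. Stellate cell and fibroblast genes had 1 higher and 10 lower means and a median of -0.12, with summed levels of 43.0 to 48.1 and 35.4 to 48.8 on corn oil and phenolphthalein arrays. Rgs5 differed by 0.65 ± 0.185 and Eln by -0.55 ± 0.16. Endothelial genes had 1 higher and 6 lower means and a median of -0.08, with summed levels of 65.8 to 67.9 and 60.1 to 67.1, Cdh5 at -0.29 ± 0.085 and Tek at -0.235 ± 0.12. Limma called none of these genes, while 5 lymphocyte, 3 stellate or fibroblast, 1 endothelial and 0 hepatocyte genes had an unadjusted p under 0.05. The part of these cell types and of macrophages in the values of the duct markers was not tested.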

How the data were processed

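The authors' deposited scanner files hold spot intensity as written by Agilent Feature Extraction (10.7 in the submitters' processing notes, 10.7.1.1 in the headers). Its processed signal has the background subtracted, per the file headers, with no scaling between arrays. The deposited value table was found to be this intensity scaled by a constant for each array near its 75th percentile, with column medians of 0.0984, 0.101, 0.102, 0.0954, 0.0941 and 0.0959. It is linear and not centred per gene.

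That signal was taken to log2 and centred on the 75th percentile of non-control probes of its array, with outlier-marked spots set missing (0 for the member probes). A probe was kept if 3 or more of the 6 arrays read it well above background. Each probe has 1 spot. Probes were named by matching unversioned accessions to a RefSeq table of assembly GRCr8, where 27460 matched 1 gene, 0 several and 34197 none. Probe sequences are not used here. For lists, the brightest probe past the filter stood for a gene. Groups are those of the labels, 3 animals each, and the number of arrays limits the precision.

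Limma 3.58.1 (lmFit and eBayes, R 4.3.3, data.table version 1.17.8) was fitted over all probes, and over all genes for lists, with Benjamini-Hochberg adjustment at 0.05. The procedure was tested on simulated data without a slide effect and with changes larger than those of the member probes past the filter. Its power for changes of their size was not tested. Members and lists were chosen with earlier results of these data known, and the motif list after the promoters were seen. Genes named were all member probes, called genes and the 2 smallest p-values of each pathway list, the 2 smallest of each cell type list, and the 3 most like each member by Pearson r. Some genes that the rule takes are left out of the text. Msln, Podxl, Calb2, Wt1, Afp and Dlk1 were chosen after their values were seen.

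Alternatives were normexp (offset 50, on the median spot signal), quantile normalization, median centring, no filter, a filter on all 6 arrays, an intensity trend with a robust prior, outlier-marked spots kept, the deposited values, masking of dim array columns, the mean of a gene's probes, each array left out, and a replicate block.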

Additional observations from a re-analysis of the deposited data

How the results depend on the processing

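Member probes called were 0 under all 16 alternatives, and list genes called 0 under all 17. The count of member probes with all phenolphthalein arrays above all corn oil arrays, added after the data were seen since corn oil replicate 2 stood apart, was 4, and 4 to 6 with arrays left out (6 without phenolphthalein replicate 3, where 17.5% of all probes were so arranged, and 4 without corn oil replicate 2, where 18.4% were, against 11.8% with all arrays). Over all probes, 19 calls became 0 without a filter, 27 with an intensity trend and robust prior, and 0 to 5 with arrays left out. Over all genes, 7 calls became 0 to 6 with arrays left out. Same-numbered animals did not deviate together (r of -0.012, 0.02 and 0.006), and with the number as a replicate block calls were 0 for member probes, 0 for list genes, 0 for all probes and 0 for all genes, with 4 probes not overlapping. The differences of Cftr A_64_P103537, Epcam, Spp1, Krt7 and all Prom1 probes stayed above 0 under every alternative that gave a value. Krt19 ranged from -0.24 to 0.075. List medians turned sign under some alternatives for other bile duct genes (-0.035 to 0.08), ductal secretion (-0.001 to 0.16), Notch (-0.07 to 0.06) and keratins and junctions (-0.11 to 0.001). Those of progenitor genes (0.03 to 0.19), YAP and TEAD genes (-0.095 to -0.007) and partners of osteopontin and Epcam (-0.16 to -0.02) kept their sign but moved by more than 1.5 times. The median of all genes ranged from -0.02 to 0.09. Low signal over background limits Cftr, Krt7, Prom1 A_43_P12115 and Prom1 A_44_P448717, whose difference was 0.23 with normexp.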

Other observations

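Markers of neighbouring organs were measured as well. Of 10 pancreatic acinar genes on the array, Prss1, Cela1, Cpa1, Pnlip and Pnliprp1 were not well above background on any array. The 5 measured had 4 higher means and 1 lower, that of Cela2a, with a median difference of 0.02. Cela2a, a pancreatic elastase, was well above background on 3 corn oil and 2 phenolphthalein arrays and differed by -0.73 ± 0.18, and Cel, a lipase, by 0.15 ± 0.15 (limma's standard errors, n = 3 each). Of the intestinal genes 5 were measured, with 4 lower means and 1 higher, that of Tff3, and a median of -0.32. Vil1 was not well above background on any array. Fabp2, an intestinal fatty acid carrier, differed by -0.32 ± 0.10 and Tff3, a mucosal peptide also found in bile ducts, by 0.505 ± 0.18. The mesothelial gene Gpm6a was lowest on corn oil replicate 1, at -3.22, and highest on phenolphthalein replicate 1, at 0.16, an order unlike that of Msln and Upk1b.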
